A study of Mus musculus with 4 samples.

Results

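The AP-1 transcription factors were examined in tumor-derived breast cancer cells that had been stimulated with EGF, using the 9 genes Fos, Fosb, Fosl1, Fosl2, Jun, Junb, Jund, Atf3 and Maff. Members were taken by name: every non-control probe of the array whose gene name was one of these genes was included, which gave 9 of 31829 gene names and 10 of 39429 probes on the array. Fosl2 had 2 probes and each of the other genes had 1, and the brightest probe stood for its gene. The Fos probe was printed in 10 spots and the others in 1 spot each, so that the members took up 19 of 43020 spots. All 10 probes were well above background on all 4 arrays, and none was lost to the filter on dim probes.

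RNA was measured on a single-color (Cy3) mouse array in 2 groups of 2 samples. All the cells came from breast tumors of MMTV-Neu mice, in which a viral promoter active in the mammary epithelium drives the Neu (Her2) oncogene. The groups were labelled Pak1-/-, from animals lacking the p21-activated kinase Pak1, and Pak1+/+, from animals with the wild type gene. Every sample, in both groups, was grown in low calcium medium with 5% horse serum, deprived of serum for 3 h and given EGF for 15 min before harvest. Samples without EGF were not analysed here, so the values are levels after stimulation and do not give an induction by EGF. The series design says that the cells of a group came from 2 tumors, while the methods speak of the samples as cell lines. The ages of the mice are not given in the sources used here.

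AP-1 is a dimer of basic leucine zipper (bZIP) proteins. JUN proteins can pair with each other or with FOS proteins, whereas FOS proteins need a partner, and ATF3 and the small MAF protein MAFF belong to related branches that pair with some of the same factors. Many of these genes are immediate early genes: growth factors such as EGF act through ERK and other kinases on factors already present in the cell, and the transcripts appear within minutes and decay quickly.

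The arrays were of like quality, with 62.2% to 70.4% of probes well above background and a correlation of 0.997 inside each group, and one of 0.954 to 0.959 for pairs that cross the groups (across probes, which are not independent replicates). The Pak1 probe, which checks the labels, was 12.21 and 12.25 log2 in the Pak1-/- labelled arrays and 12.04 on both Pak1+/+ labelled arrays, so it was not lower in the knockout (adjusted p = 0.070 in limma). Whether this probe lies in the deleted part is not given in the sources used here, and all directions rest on the labels. Of the epithelial markers, 6 of 6 were well above background on all arrays, and 5 were higher and 0 lower in the Pak1-/- labelled arrays, where 23.3% of all probes were called higher and 28.6% lower (limma, adjusted p of 0.05). The log2 of their summed intensity was 19.92 to 19.94 in these arrays and 19.47 to 19.48 in the Pak1+/+ labelled arrays. This sum is mostly that of the luminal keratins Krt8 and Krt18, which were higher by 0.57 and 0.27, while the basal keratin Krt14 was higher by 2.83 and Cdh1 by 1.19. Krt5 was higher by 0.50, and Epcam did not pass (-0.23). Of the 5 fibroblast markers, 3 (Col1a1, Col1a2 and Pdgfra) were well above background on all 4 arrays, and Dcn and Col3a1 on none. Of the 5 leukocyte markers, 3 (Ptprc, Cd68 and Cd3e) were so on all 4 arrays and Lyz2 on none, and Cd3e was 11.3 to 11.7 log2. The summed level of the 5 fibroblast markers was 10.13 to 10.34 and 9.85 to 9.91 in the same order, with 1 of them (Col1a1) higher. That of the 5 leukocyte markers was 11.88 to 11.91 and 11.65 to 11.81 (0 higher, 1 lower). That of the 3 endothelial markers was 13.26 to 13.32 and 13.12 to 13.39 (0 higher, 0 lower). The endothelial sum is mostly that of the brightest Kdr probe, which did not pass (0.04). Another Kdr probe was well above background only in the Pak1-/- labelled arrays, and was at least 2.17-fold higher there. The replicates of Cdh5 lay 1.38 apart in the Pak1-/- labelled arrays and 1.36 apart in the others. The part of any of these in the results below was not tested. In cultures such as these, fewer cells of a type and less RNA per cell cannot be told apart.

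The promoters of 8 of the 9 genes were matched in RefSeq (assembly GRCm38.p6), with 10 windows of 250 bases before to 50 bases after a start site. The stretches below show the last 120 bases before the start of 5 members that bear a sequence of the AP-1 and CREB kind, printed 5′ to 3′ on the strand of the gene. They are shown as examples of members with such letters, chosen with the results known. Fosl2 and Jund, which were called higher, had none of them in their windows, and Fosl1 was not matched. Maff, which was not called, had the most matches but also the most windows, so match counts cannot be compared between genes. Capitals mark the letters TGACG, read on either strand (CGTCA on the other), or the longer TGACATCA.
Jun, chr4:95052223-95052342, minus strand: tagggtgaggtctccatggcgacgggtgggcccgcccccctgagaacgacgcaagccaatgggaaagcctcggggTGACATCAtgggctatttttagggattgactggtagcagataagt
Atf3, chr1:191183334-191183453, minus strand: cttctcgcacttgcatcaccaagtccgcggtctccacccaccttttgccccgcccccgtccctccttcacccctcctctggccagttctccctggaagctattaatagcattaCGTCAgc
Fos, chr12:85473770-85473889, plus strand: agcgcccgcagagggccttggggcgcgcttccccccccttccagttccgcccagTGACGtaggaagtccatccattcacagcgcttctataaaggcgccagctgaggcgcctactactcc
Junb, chr8:84978749-84978868, minus strand: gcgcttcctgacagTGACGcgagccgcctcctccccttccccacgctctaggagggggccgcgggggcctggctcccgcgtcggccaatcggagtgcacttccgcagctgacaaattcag
Fosb, chr7:19310046-19310165, minus strand: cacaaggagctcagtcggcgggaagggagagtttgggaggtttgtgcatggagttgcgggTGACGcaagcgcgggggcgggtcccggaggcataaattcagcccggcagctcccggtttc

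In Jun the letters TGACATCA began 45 bases before the start. Either strand of this motif was found in 2 of the 10 member windows, Jun and 1 of 3 for Maff, and in 3.62% of the 32851 windows of all genes. TGACG, which is also part of TGACGTCA, was found on either strand in 6 of the 10 windows and in 20.8% of all. It began 66 and, outside the stretch printed, 129 bases before the start of Fos, 60 before that of Fosb, 106 before that of Junb and 7 before that of Atf3. The full palindrome TGACGTCA stood in 1 member window, that of Maff, and in 1.79% of all, and neither TGANTCA (7.81% of all) nor the CArG box bound by SRF (1.63% of all) was in any of the 10. These matches are letters in a short window, and binding was not measured. Sequence more than 250 bases before the start was not searched, so a motif absent here can still stand further upstream.

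Jun showed the largest difference of the 9 genes and 8 of them passed the test between the groups. Of the members, 6 were higher in the Pak1-/- labelled arrays (Jun, Atf3, Fos, Fosl2, Jund and Junb), 2 were lower (Fosl1 and Fosb) and Maff did not pass. These calls are by limma with Benjamini-Hochberg adjustment at an adjusted p of 0.05 over 27229 probes, of which 51.9% were called, 23.3% as higher and 28.6% as lower. The median log2 difference was 0.48 over the 9 genes and -0.05 over all probes tested, and the median size was 0.81 against 0.33. With a further requirement of a 2-fold change, which 12.5% of all probes met, Jun and Atf3 were higher and Fosl1 lower. At an adjusted p under 0.01, which 32.6% of all probes met, 5 members were called, all of them higher: Jun, Fosl2, Jund, Atf3 and Junb. The groups did not overlap for any of the 9 genes, as for 78.2% of all probes.

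**Figure D1:**
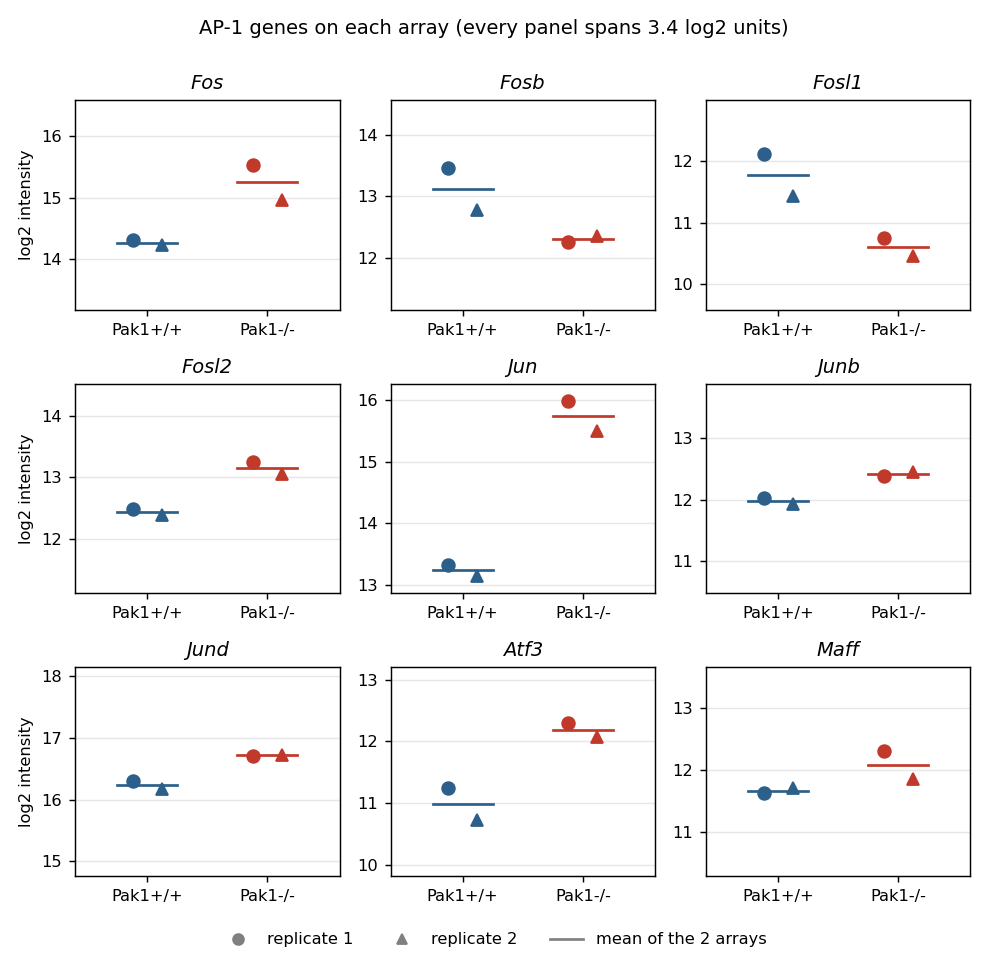
Quantile-normalized log2 intensity (vertical axis) of each AP-1 gene on the 4 arrays, by its brightest probe. Circles and triangles are replicates 1 and 2, and the bar is the mean of the 2 arrays. Jun stands between 15.49 and 15.99 in the Pak1-/- labelled arrays and between 13.14 and 13.33 in the Pak1+/+ labelled arrays, while Fosl1 and Fosb are the genes whose Pak1-/- arrays lie below. Levels are not comparable between panels.

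The JUN genes encode partners with which FOS proteins can pair. Jun (mm9 chromosome 4, 94716928 to 94716987), the founding member, had a normalized log2 intensity of 15.99 and 15.49 in the Pak1-/- labelled arrays and 13.33 and 13.14 in the Pak1+/+ labelled arrays. Both Pak1-/- arrays lay more than 2 log2 units above both Pak1+/+ arrays. The difference of 2.51 (SE 0.19) was 5.68-fold (95% confidence interval 4.04 to 7.99) with an adjusted p of 0.00089 in limma. Of the 27229 probes tested, 376 had a larger increase. It passed under all 16 alternatives, with values of 2.26 to 2.76. For each member these 16 leave out the 2-fold requirement, whose result is given above.

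Junb (chromosome 8, 87501881 to 87501940), whose product often opposes that of Jun, was 12.38 and 12.44 in the Pak1-/- labelled arrays against 12.02 and 11.92. The increase of 0.44 (SE 0.08, adjusted p = 0.0093) was 1.36-fold. The call did not survive leaving out Pak1+/+ replicate 2 (0.39, adjusted p = 0.055). Across all alternatives its adjusted p ran from 0.0048 to 0.055. Jund (chromosome 8, 73224436 to 73224495), which is made more steadily than the other JUN genes in most cells, was 16.71 and 16.73 against 16.30 and 16.18. Its increase of 0.48 (SE 0.08, adjusted p = 0.0075) was 1.39-fold. It did not pass with the scanner's processed intensities scaled to the 75th percentile (0.28, adjusted p = 0.078). With normexp intensities scaled in this way it was also smaller, at 0.29, and passed narrowly (adjusted p = 0.044). The size of the Jund increase thus depended on the scaling. Across all alternatives its adjusted p ran from 0.0015 to 0.078. All 3 JUN genes were thus called higher, Jun by over 2 log2 units and the others by under 0.5.

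The FOS genes went both ways. Fos (chromosome 12, 86817900 to 86817959), the classical immediate early gene, was 15.53 and 14.97 in the Pak1-/- labelled arrays and 14.32 and 14.22 in the Pak1+/+ labelled arrays. The lower Pak1-/- array was still above both Pak1+/+ arrays, and the Pak1-/- labelled arrays lay further apart than the Pak1+/+ labelled arrays. The 10 Fos spots of an array had an SD of 0.14 to 0.17, which is the spread within an array and leaves out that between samples. The increase of 0.98 (SE 0.20, adjusted p = 0.015) was 1.97-fold, with a 95% confidence interval of 1.37 to 2.84. It held its call at an adjusted p of 0.05 under every alternative, except that it fell short of the 2-fold requirement.

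Fosl2 (Fra-2), which lacks the strong activation domain of Fos, was represented by probes 4988 bases apart on chromosome 5. The brighter probe (32460076 to 32460135) was 13.25 and 13.05 in the Pak1-/- labelled arrays against 12.49 and 12.39. Its increase of 0.71 (SE 0.10, adjusted p = 0.00455) was 1.64-fold and passed under all 16 alternatives, though it fell short of the 2-fold requirement. The dimmer probe (32455088 to 32455147) was 7.81 and 7.99 against 7.67 and 7.45, and did not pass (0.34, SE 0.11, adjusted p = 0.064). It had the same direction and also did not overlap between the groups, and it passed with the normexp or processed intensities scaled to the 75th percentile (0.34 and 0.57), with cyclic loess (0.37), in the authors' value table (0.39) and with the filter on all 4 arrays (0.34).

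Fosl1 (Fra-1), an AP-1 gene that many invasive breast cancer cells express strongly and that lies on chromosome 19 (5455496 to 5455555), was 10.75 and 10.46 in the Pak1-/- labelled arrays against 12.11 and 11.43 in the Pak1+/+ labelled arrays. Both Pak1-/- arrays lay below both Pak1+/+ arrays, though the Pak1+/+ labelled arrays lay 0.68 apart. It was lower by 2.24-fold (95% confidence interval 1.41 to 3.54, log2 difference -1.16, SE 0.25, adjusted p = 0.018). The call was lost without Pak1-/- replicate 1 (-1.30, adjusted p = 0.065) and without Pak1-/- replicate 2 (-1.02, adjusted p = 0.098). Across all alternatives its adjusted p ran from 0.0039 to 0.098.

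Fosb (chromosome 7, 19888168 to 19888227), an early gene closely related to Fos, was 12.25 and 12.36 in the Pak1-/- labelled arrays against 13.46 and 12.77. The gap between the nearest arrays of the groups was smaller than that between the Pak1+/+ labelled arrays, which was 0.69. The decrease of -0.81 (SE 0.24) was 1.75-fold (95% confidence interval 1.13 to 2.71) and passed narrowly (adjusted p = 0.043). The call held under 8 of 16 alternatives. It was lost without Pak1-/- replicate 1 or 2 (adjusted p = 0.18 and 0.14), at an adjusted p under 0.01, without an offset (0.060), with the processed intensities (0.061), with cyclic loess (0.054), without the filter on dim probes (0.073) and in the authors' value table (0.062). The value moved from -0.81 to -0.47 without Pak1+/+ replicate 1 and kept its sign under every alternative.

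Atf3 (chromosome 1, 192994547 to 192994606), a stress- and growth factor-induced gene whose product can repress or activate as a dimer with JUN proteins, was 12.30 and 12.07 in the Pak1-/- labelled arrays and 11.25 and 10.72 in the Pak1+/+ labelled arrays. Both Pak1-/- arrays were higher than both Pak1+/+ arrays. The increase of 1.20 (SE 0.20, adjusted p = 0.0080) was 2.30-fold, with a 95% confidence interval of 1.59 to 3.31. The call did not survive leaving out Pak1-/- replicate 1 (1.09, adjusted p = 0.058). Across all alternatives its adjusted p ran from 0.0027 to 0.058.

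Maff (chromosome 15, 79189442 to 79189501) encodes a small MAF protein, which binds DNA but has no activation domain. It was 12.32 and 11.85 in the Pak1-/- labelled arrays against 11.63 and 11.70. Only replicate 1 of the Pak1-/- labelled arrays stood clearly above the others. The difference of 0.41 (SE 0.17) did not pass (adjusted p = 0.10), and its 95% confidence interval ran from -0.03 to 0.86. Without Pak1-/- replicate 2 it was 0.65 and passed (adjusted p = 0.015), and without Pak1-/- replicate 1 it was 0.18 and did not. Across all alternatives its adjusted p ran from 0.015 to 0.24.

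**Figure D2:**
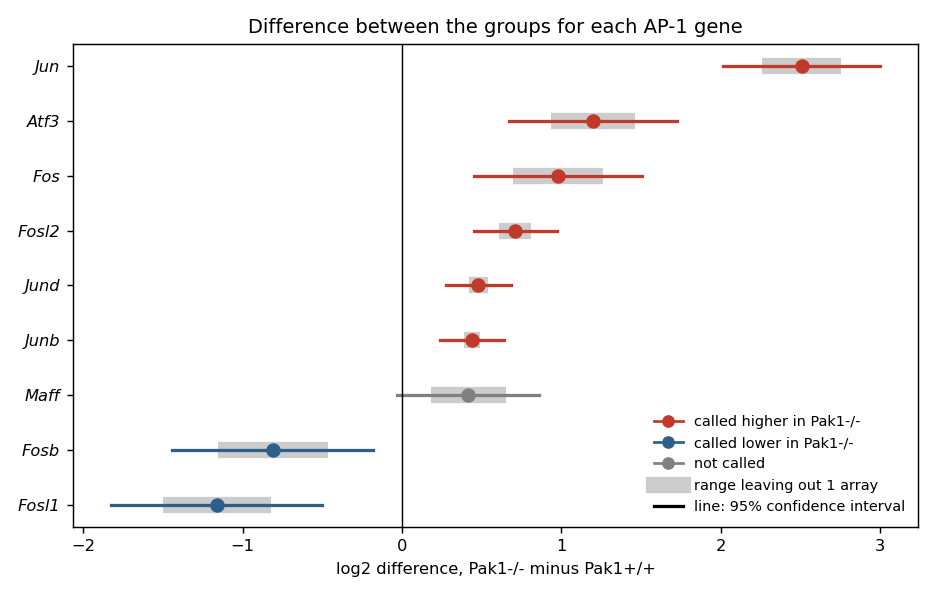
Log2 difference between the groups (horizontal axis, Pak1-/- minus Pak1+/+) for each AP-1 gene, with its 95% confidence interval from limma as a line and the range over the fits that leave out 1 array as a grey band. Jun stands furthest to the right at 2.51, Fosl1 and Fosb lie to the left of 0 at -1.16 and -0.81, and the interval of Maff crosses 0.

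The gap between replicates was compared with that of all probes, as a description. The median absolute difference between the 2 arrays of a group was 0.23 log2 in the Pak1-/- labelled arrays and 0.12 in the Pak1+/+ labelled arrays for the 9 genes, against 0.11 and 0.083 over all probes tested. It was above the median of all probes for 6 of 9 genes in the first group and 8 of 9 in the second. In the Pak1-/- labelled arrays the widest gaps were those of Fos (0.57), Jun (0.50) and Maff (0.47). In the Pak1+/+ labelled arrays they were those of Fosb (0.69), Fosl1 (0.68) and Atf3 (0.53). The 3 genes with the widest gaps were thus not the same in the groups. Replicate 1 was the higher array for 6 of 9 genes among the Pak1-/- labelled arrays and for 8 of 9 among the Pak1+/+ labelled arrays, where 49.4% and 51.0% of all probes were higher on replicate 1. The time between stimulation and lysis of single samples is not given in the sources used here, and its part was not tested.

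**Figure D3:**
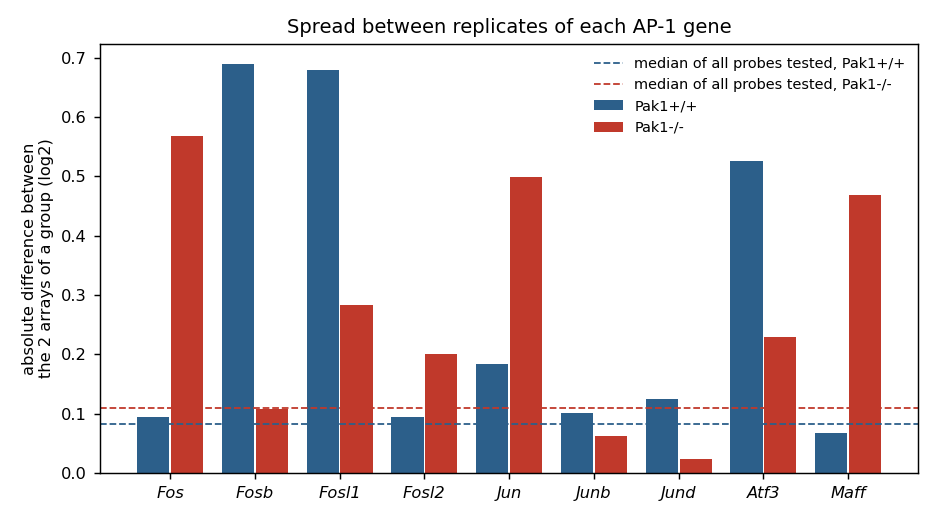
Absolute log2 difference between the 2 arrays of a group (vertical axis) for each AP-1 gene, blue for Pak1+/+ and red for Pak1-/-. Dashed lines mark the median over all probes tested. The blue bars of Fosb, Fosl1 and Atf3 and the red bars of Fos, Jun and Maff stand well above these lines, while both bars of Junb and Jund are at most 0.12.

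The genes that induce or modify AP-1 were examined next, from a list of 21 genes that holds the serum response factor Srf, its partners and the kinases upstream. Of 20 genes tested, 9 were higher and 4 lower in the Pak1-/- labelled arrays, where 23.3% of all probes were higher and 28.6% lower. The median was 0.23, against -0.05 over all probes. These counts rest on the brightest probe of each gene, and some genes had a probe with another call. Creb1 counts as higher (0.35), while its other probe was called lower (-0.39, adjusted p = 0.036). Elk3 counts as not called (0.19), while another of its probes was called lower (-0.39, adjusted p = 0.016). The 4 largest differences, all increases, were those of the ERK-activated kinase Rps6ka1 (1.13, SE 0.07, adjusted p = 0.00048), of Srf (1.01, SE 0.15, adjusted p = 0.0059), which drives Fos and other early genes, and of its coactivators Mrtfb (0.98, listed as Mkl2 on the array) and Mrtfa (0.68, listed as Mkl1). Of the other 2 probes of Mrtfb, 1 passed (0.66) and 1 did not (0.35, adjusted p = 0.069). Srf was 14.18 and 13.77 against 12.96 and 12.97. A second probe of Srf also passed with a smaller increase (0.34, adjusted p = 0.043). The brightest probe of the SRF partner Elk1 was saturated on all 4 arrays, so that its difference cannot be read, though it counts among the 20 genes and in their median. Its other probe was not saturated and did not pass (0.09, adjusted p = 0.51).

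Of the 8 genes that act on the turnover of AP-1 proteins or transcripts, 4 were higher and 3 lower, beside 23.3% and 28.6% of all probes. Zfp36, which binds AU-rich elements of early transcripts and speeds their decay and is itself an early gene, was higher by 1.39 (SE 0.15, adjusted p = 0.0021). Of its relatives, Zfp36l1 was higher by 0.65 and Zfp36l2 lower (-0.73). Itch, a ubiquitin ligase that acts on JUN proteins, was higher by 0.59. The median of the 8 genes was 0.30.

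Other bZIP genes, which can join AP-1 or MAF dimers, were read from a list of 18. Of 15 tested, 5 were higher and 1 lower, beside 23.3% and 28.6% of all probes, and the median was 0.10. Batf, Nrl and Nfe2 lacked a clear signal on all 4 arrays and were not tested. Nfe2l3 (3.78, SE 0.09, adjusted p = 0.000071), a partner of small MAF proteins, had the largest increase. Maf, whose probe was not well above background on Pak1+/+ replicate 2, was higher by 0.84, and Batf3 was lower (-0.58).

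Genes described as AP-1 targets were read from a list of 20. Of 18 tested, 12 were lower and 3 higher in the Pak1-/- labelled arrays, beside 28.6% and 23.3% of all probes. The median was -0.68. Of the 12, Mmp3 and Mmp13 entered only through the Pak1+/+ labelled arrays, where they were brighter, and with the filter on all 4 arrays 10 of 16 targets were lower and the median was -0.47. The chromatin protein Hmga2 was lower (-2.42, SE 0.08, adjusted p = 0.00012) and so was the secreted phosphoprotein Spp1 (-2.41, SE 0.24, adjusted p = 0.0019). The collagenase Mmp13 was not well above background on either of the Pak1-/- labelled arrays and was at least 4.54-fold lower there. Since it was kept through the brighter group alone, its adjusted p (0.00029) is no independent support. The metalloproteinase inhibitor Timp1 was higher by 5.08 (SE 0.19, adjusted p = 0.00016), at 13.06 and 12.61 against 7.61 and 7.89. Many of these genes answer to factors other than AP-1 as well.

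**Figure D4:**
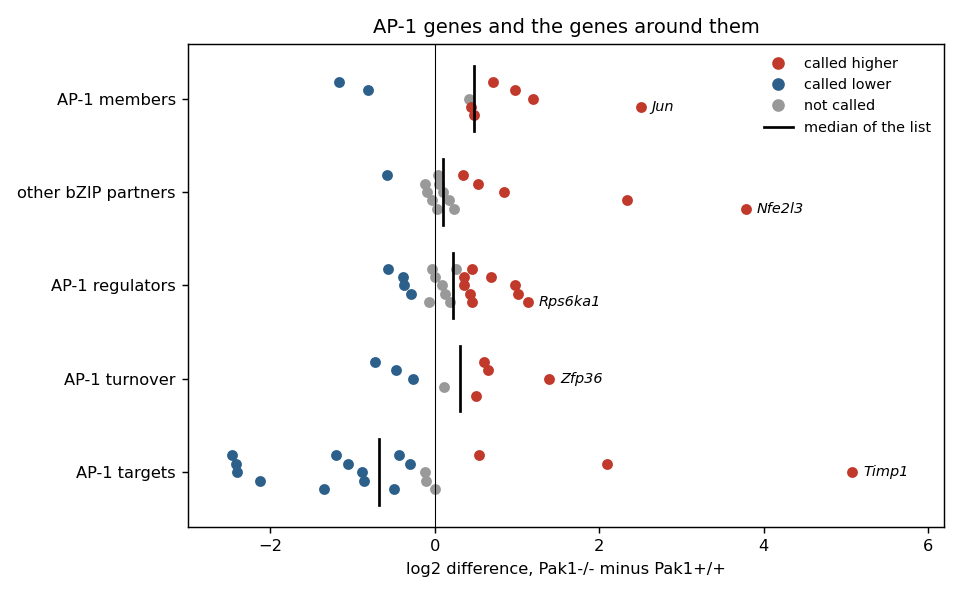
Log2 difference between the groups (horizontal axis) for each gene tested, by its brightest probe, in the AP-1 members and 4 lists around them. Red and blue points were called higher and lower in the Pak1-/- labelled arrays, grey points were not called, and black lines are list medians. The medians of the AP-1 members (0.48) and of the AP-1 targets (-0.68, or -0.47 over the 16 targets well above background on all 4 arrays) lie on opposite sides of 0.

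For Jun, the genes whose deviations from their own mean on the 4 arrays lay closest to its own were Sp110 (distance 0.067 log2), Col4a5 (0.12) and Csrp1 (0.18), among all probes tested. Their differences between the groups were 2.49, 2.53 and 2.55. This likeness over 4 arrays in 2 groups is a description only.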

How the data were processed

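The scanner files hold linear spot intensities that the authors deposited as made by Agilent Feature Extraction 9.5.3.1, not normalized between arrays, with probes placed on mm9 (NCBI37). A value table deposited beside them holds log2 values for 24008 probes, which the authors made with normexp correction and quantile normalization. Here the mean signals were corrected with normexp (offset 50, limma 3.58.1, R 4.3.3), put on the log2 scale, quantile normalized and averaged over the spots of a probe, without control and outlier-flagged spots. A probe was kept if 2 or more of the 4 arrays had it well above background. Groups were compared with lmFit and eBayes (two-sided, 2 residual and 2.62 prior degrees of freedom), and the script was tested on simulated data. The raised intensity from the offset understates changes of dim probes. Where both arrays of a group lacked a signal well above background, a bound is given, the mean of the brighter group against, per array, the higher of the probe and the lowest probe well above background. An exact test of 2 samples against 2 cannot go below p = 0.333. The p-values measure the spread between these samples, and the number of arrays limits precision. All arrays shared 1 slide, on which Pak1-/- held the first 2 positions, and an effect of position cannot be told apart from one of genotype. Named genes were the 9 members, Pak1, the 4 largest called differences of each list (1 gene is not reported here) and the 3 genes nearest to the member with the largest difference. Outside this rule, cell type markers and Elk1, Elk3, Creb1, Batf, Nrl, Nfe2 and Mmp3 are named to account for their lists. Members and lists were chosen with earlier results of these data known. Alternatives changed the offset, scaling, filter, prior, block, threshold, probe summary, input table and samples.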

Additional observations from a re-analysis of the deposited data

How the results depend on the processing

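No AP-1 gene changed sign under any alternative. For these genes the alternatives counted do not include the added 2-fold requirement, which is given separately. Over their 10 probes, 137 values kept their side of the threshold, 15 lost it and 7 gained it. The count of lower members (2) was 1 without an offset, with the processed intensities, with cyclic loess, without a filter and in the authors' value table, since Fosb was lost. An adjusted p under 0.01 left 8878 probes of 14132, 0 lower members, 2 of 5 higher bZIP partners and 2 of 4 lower regulators. An added 2-fold requirement left 3413 probes, 2 higher and 1 lower member, 2 higher and 0 lower bZIP partners, 2 higher and 0 lower regulators, 1 higher and 0 lower turnover genes and 7 lower targets. The count of higher bZIP partners was 3 without a filter and 3 with the filter on all 4 arrays.

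Leave-one-out fits assume that a lone sample varies like the other group. They gave 10307 to 12164 probes, 2 to 4 higher bZIP partners, 6 to 7 higher and 1 to 3 lower regulators, 2 lower turnover genes, 2 to 3 higher and 8 to 10 lower targets, and 5 to 7 higher and 0 to 2 lower members. The cause of these moves was not tested. Samples of the same number share only that number (r = -0.028 between the replicate differences of the groups, across probes). A replicate block left 13211 probes, and 6 members were higher and 2 lower, as without it. No scaling moved the median of all probes by as much as 0.1 log2.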
